A study of Mus musculus with 8 samples.

Results

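Fibroblast growth factor (FGF) ligands and receptors were followed as 10 genes, Fgf1, Fgf2, Fgf7, Fgf10, Fgf18, Fgf21, Fgfr1, Fgfr2, Fgfr3 and Fgfrl1, which were found by symbol among the 24062 genes of the RNA-seq table. All 10 were listed. RNA and DNA methylation came from stable clones of NIH3T3, a mouse embryonic fibroblast line: 14-3-3ε clones 10 and 12, which carry a FLAG-tagged 14-3-3ε expression plasmid driven by a CMV promoter, and control clones 2 and 3, which carry the control vector. Per the labels' protocols, transfected cells were selected in 800 μg/mL of G418, single colonies were picked and checked by western blot for the FLAG tag, and clones grew with 10% serum. Each of these 4 clones had an RNA-seq library and a library of reduced representation bisulfite sequencing (RRBS), in which the enzyme MspI cuts DNA at CCGG and CpG-rich fragments are read after bisulfite conversion. Each clone came from 1 colony, so what sets a clone apart by itself and what 14-3-3ε does cannot be told apart with 2 clones per group. P-values of the RNA comparison, read as DESeq2 makes them, measure the spread between these clones only.

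FGF ligands are secreted proteins that bind receptor tyrosine kinases of the Fgfr family, with heparan sulfate chains as a required partner for the paracrine ligands and Klotho proteins for the endocrine ones. An active receptor phosphorylates the docking protein Frs2, which recruits Grb2, Sos and Ptpn11 and so feeds the Ras-MAPK cascade; Etv factors and immediate early genes respond, and Sprouty and Dusp proteins damp the signal. Fibroblasts are known both as a source of FGFs that act on epithelium and as cells that divide in response to Fgf2.

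For each assay 1 table was analysed, the authors' contrast of the 2 groups, and no clone's own level can be shown from it. Positive values were read as higher in 14-3-3ε clones, the usual convention of the tools named in the submitters' notes. Neither table states the sign, and every "higher", "rose", "lower" and "fell" rests on this reading. Log2 fold changes are given ± their standard error as the authors deposited them. Mean normalized count is the authors' mean level over libraries, and it is not per length, so levels of different genes were not ranked. The mouse gene of 14-3-3ε, Ywhae, showed a log2 fold change of -0.03 ± 0.18 in the authors' deposited table, at an adjusted p of 0.942. It gave no check of the labels, and the sources used here do not say how plasmid transcripts were counted. All 12 fibroblast markers were tested, with mean normalized counts between 2189 for Lum and 424650 for Fn1 in the authors' deposited table, against at most 52.7 for 7 epithelial, 110 for 6 blood and 8.17 for 4 endothelial markers, with Krt5, Hbb-bs and Kdr among those at 0. Of the fibroblast markers 6 rose and 0 fell, Col3a1 most with a log2 fold change of 3.25 in the authors' deposited table. Among the markers of other cell types only Krt14 was called, at -1.41 (log2) in the authors' deposited table, and the part of marker changes in the FGF results was not tested.

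None of the FGF ligands or receptors was called between 14-3-3ε and control clones. Of the 10 genes, 7 had an adjusted p in the authors' deposited table, and 0 of these 7 were under 0.05, beside 10.9% of the 11482 tested genes. At an unadjusted DESeq2 p under 0.05 the count was 1, Fgfr2, beside 23.8% of tested genes. The median log2 fold change of the 7 tested genes was -0.07 with 3 above and 4 below 0, against -0.00 over all tested genes, and their median size regardless of sign was 0.32, against 0.27, all from the authors' deposited table. The other 3, Fgf1, Fgf18 and Fgfr3, lay below 33.1 mean normalized counts, the lowest level with an adjusted p, so the authors' adjusted p could not call them. Their unadjusted DESeq2 p-values were 0.406, 0.440 and 0.581.

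**Figure D1:**
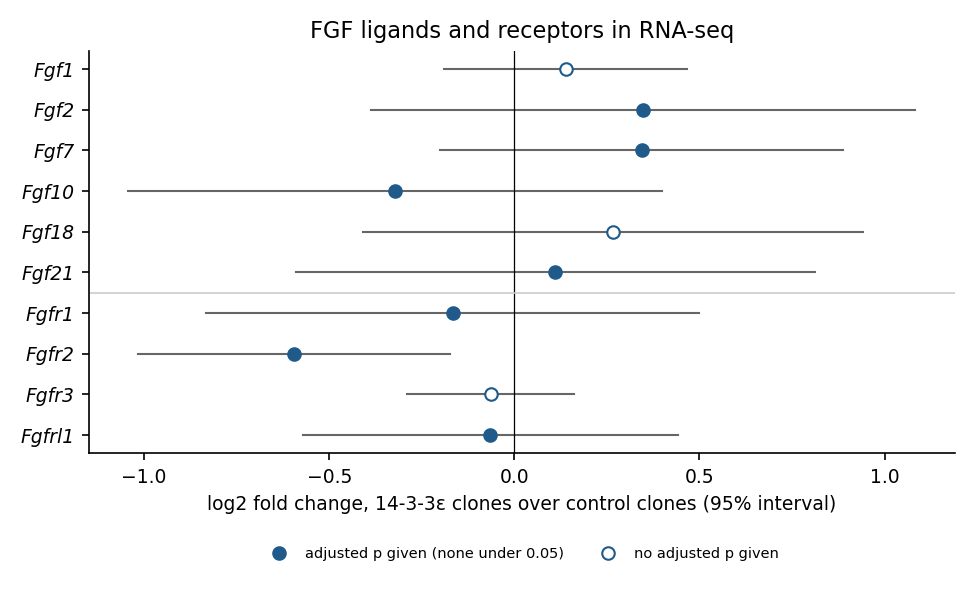
Log2 fold change (x axis, 14-3-3ε over control clones, authors' deposited values) of the FGF ligands (upper rows) and receptors (lower rows), with lines for the 95% interval. Filled points have an adjusted p and open points have none. Fgfr2 is the gene whose interval leaves out 0.

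Fgfr2, a receptor tyrosine kinase whose splice forms bind different ligands, came closest to a call. It had a mean normalized count of 1004 and a log2 fold change of -0.60 ± 0.22 in the authors' deposited table, at an adjusted p of 0.0521. That is 0.662 of the control level, with a 95% interval from 0.494 to 0.887. Over all genes, 1271 tested genes had a smaller p, and 1250 were called, so Fgfr2 lay just outside the threshold. The table gives 1 row per gene, and the epithelial and mesenchymal splice forms of Fgfr2 cannot be told apart. In bulk RNA, fewer cells that express a gene and less RNA per cell cannot be told apart either.

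The other receptors had log2 fold changes nearer to 0. Fgfr1, the receptor that mesenchymal cells chiefly use, had a mean normalized count of 4665 and a log2 fold change of -0.17 ± 0.34 in the authors' deposited table, at an adjusted p of 0.822, with a 95% interval from -0.83 to 0.50. Fgfrl1, which binds FGFs but has no tyrosine kinase domain, stood at 1446 mean normalized counts and a log2 fold change of -0.07 ± 0.26 in the authors' deposited table, at an adjusted p of 0.917, and its interval ran from -0.57 to 0.44. Fgfr3, best known as a brake on the growth of long bones, was listed at 0.270. This is the highest of the 4 lowest levels above 0 in the table, each shared by 245 to 315 genes with 1 fold change per level, as a single read in 1 of 4 libraries would give. Fgfr3 RNA was therefore at the detection limit, and its log2 fold change of -0.06 in the authors' deposited table cannot be read as a difference.

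Among ligands, Fgf7, the keratinocyte growth factor that mesenchymal cells make for epithelium, had a mean normalized count of 7191. Its log2 fold change was 0.34 ± 0.28 in the authors' deposited table, at an adjusted p of 0.488, and its 95% interval ran from -0.20 to 0.89. Fgf10, of the same subfamily and needed for limb and lung buds, pointed the other way at a mean normalized count of 748, with a log2 fold change of -0.32 ± 0.37 in the authors' deposited table, at an adjusted p of 0.657. Its interval, from -1.04 to 0.40, takes in both a fall of 2-fold and a rise. Fgf21, an endocrine FGF that acts through receptors with the co-receptor Klb, stood at 734 mean normalized counts with a log2 fold change of 0.11 ± 0.36 in the authors' deposited table, at an adjusted p of 0.896. Klb itself, without which Fgf21 signals poorly, had a mean of only 2.00 mean normalized counts in that table of the authors.

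Fgf2, the basic FGF and a mitogen of fibroblasts, had a mean normalized count of 103 and a log2 fold change of 0.35 ± 0.37 in the authors' deposited table, at an adjusted p of 0.634. Its interval, from -0.39 to 1.08, takes in a rise of 2-fold and a fall. The annotated span of Fgf2 overlaps Nudt6 and the long non-coding RNA gene Fgf2os, so how reads were split there is uncertain. Nudt6 had 47.8 mean normalized counts in the authors' deposited table and was not called. The same uncertainty holds for Fgf7, which lies within Fam227b, and for Fgfr1, which overlaps the long non-coding RNA genes Gm31288 and Gm16159. It also holds for Fgf1, whose whole span, with all its listed cytosines, lies within Arhgap26. Fgf18, a ligand with roles in cartilage, bone and lung, had 9.96 mean normalized counts and a log2 fold change of 0.27 ± 0.34 in the authors' deposited table. Fgf1, the acidic FGF that can bind every Fgfr, had 1.19 mean normalized counts and a log2 fold change of 0.14 ± 0.17 in the authors' deposited table. No gene with a mean normalized count of at most 10 had a log2 fold change above 0.84 in size in the authors' deposited table, and neither Fgf1 nor Fgf18 received an adjusted p.

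The fold changes of FGF genes had large errors for their levels. For each tested gene the standard error was set beside those of all tested genes with a mean normalized count within a factor of 2 of its own. Fgf10 had a larger error than 99.2% of 4424 such genes, Fgf21 than 98.6% of 4387 and Fgfr1 than 98.7% of 2291, as computed from the authors' deposited table. For Fgfr1 the median error at like level was 0.20, against its own 0.34. Fgf7 exceeded 92.1%, Fgfrl1 85.1% and Fgf2 77.9% of the genes at their levels, and Fgfr2 was the exception, with a larger error than only 34.9%. Such errors, read as DESeq2 makes them, hold the spread between clones of a group, but which clone departs cannot be seen without values per clone.

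**Figure D2:**
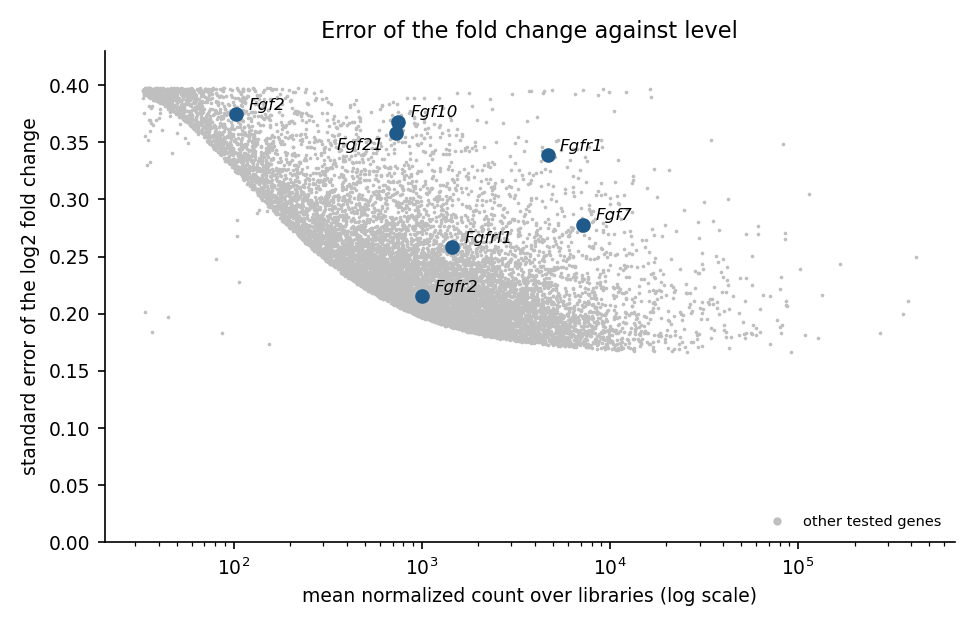
Standard error of the log2 fold change (y axis) against mean normalized count (x axis, log scale) for all genes with an adjusted p in the authors' deposited table, in grey, and the tested FGF ligands and receptors, in blue. Fgf10, Fgf21 and Fgfr1 lie high above the bulk of genes at their levels, and Fgfr2 lies inside it.

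These errors set what the comparison could call. The smallest test statistic called was 2.78 in size, so at its own error Fgfr2 would have needed a log2 change of 0.60, Fgfrl1 of 0.72, Fgf7 of 0.77 and Fgfr1 of 0.94. Fgf21, Fgf10 and Fgf2 would have needed 0.99, 1.02 and 1.04. The intervals of 4 tested genes, Fgf7, Fgf21, Fgfr1 and Fgfrl1, left out both a 2-fold rise and a 2-fold fall. They were computed from moderated fold changes and are approximate.

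Among the 18 secreted FGFs listed, 5 had an adjusted p and 6 (Fgf3, Fgf4, Fgf6, Fgf15, Fgf20 and Fgf22) were at 0. The fifth tested ligand, Fgf17, stood at 44.8 mean normalized counts with a log2 fold change of -0.04 in the authors' deposited table, at an adjusted p of 0.968. Of the intracellular FGF homologous factors, which do not act through these receptors, only Fgf11 was tested, at 0.59 ± 0.40 in the authors' deposited table, at an adjusted p of 0.375. Fgfr4 had no adjusted p.

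Some genes that act with or after FGF receptors rose in 14-3-3ε clones, heparan sulfate core proteins, Frs2, Sprouty genes and immediate early genes among them. Over 98 genes of 7 lists, 71 were tested, and 15 rose and 1 fell, beside 6.15% of all tested genes that rose and 4.74% that fell. The 16 called are 22.5% of those tested, beside 10.9% of all tested genes; the lists were drawn up with some of these results known, so this is a description. Their median log2 fold change was 0.09 in the authors' deposited table. Many of these genes also serve other growth factor receptors, and no call in the lists can be assigned to FGF signalling from these data.

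On the cell surface, 3 of 19 tested genes for FGF-binding proteins and heparan sulfate rose and 0 fell. That is a called share of 15.8%, beside 10.9% of all tested genes. They were the glypican gene Gpc4 at 1.26 ± 0.34 (adjusted p = 0.00451), the perlecan gene Hspg2 at 0.66 ± 0.17 (adjusted p = 0.00247) and the syndecan gene Sdc2 at 0.62 ± 0.20 (adjusted p = 0.0240) (log2, from the authors' deposited table). All 3 encode core proteins that carry heparan sulfate. Among the uncalled, Gpc1 had -0.64 (adjusted p = 0.111), the sulfotransferase gene Ndst1 0.51 (adjusted p = 0.0894) and the epimerase gene Glce -0.03 (adjusted p = 0.977) in the authors' deposited table. Of 4 tested co-receptors and receptor partners 1 was called, a share of 25% that rests on 1 gene. It was Ncam1, an adhesion molecule that can bind Fgfr1, which rose with 1.05 ± 0.34 in the authors' deposited table, at an adjusted p of 0.0277. The N-cadherin gene Cdh2 and Flrt2 had -0.12 and -0.18 in that table of the authors and were not called.

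Of 25 adaptors and members of the Ras-MAPK relay, 3 rose and 0 fell, which is 12% and near the 10.9% called among all tested genes. Frs2, the docking protein of FGF receptors, rose with a log2 fold change of 0.68 ± 0.23 in the authors' deposited table, at an adjusted p of 0.0283. The adaptor gene Shc1 rose by 0.59 (adjusted p = 0.0385) and Pik3r1, the regulatory subunit of PI3 kinase, by 0.68 (adjusted p = 0.0196) (log2, from the authors' deposited table). Akt1 and Ptpn11 had -0.02 and 0.14 in the authors' deposited table and were not called.

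Of 10 tested feedback inhibitors 2 rose, a called share of 20% beside 10.9% of all tested genes. They were the Sprouty genes Spry1 at 2.25 ± 0.26 and Spry4 at 1.34 ± 0.21 (log2, from the authors' deposited table). Dusp6, a MAP kinase phosphatase gene, had 0.18 (adjusted p = 0.622) and Spred1 0.10 (adjusted p = 0.789) in the authors' deposited table. The phosphatase gene Dusp4 had -0.91 (adjusted p = 0.0932) there, in the authors' deposited values. Of 11 responsive transcription factors 6 rose and 1 fell, a called share of 63.6% beside the same 10.9%. Etv1 rose by 0.72 ± 0.22 (adjusted p = 0.0151), Fos by 1.52 ± 0.27, Junb by 0.86 ± 0.21 and Ier2 by 0.91 ± 0.25 (log2, from the authors' deposited table), and Egr1 and Egr2 rose by 1.77 and 2.14. Fosl1 fell, with -1.81 ± 0.26 in the authors' deposited table. Etv5 and Etv4 had -0.01 (adjusted p = 0.993) and -0.48 (adjusted p = 0.154) in the authors' deposited table. Myc and Ier3 had -0.77 (adjusted p = 0.0621) and -0.28 (adjusted p = 0.556) in that table of the authors.

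**Figure D3:**
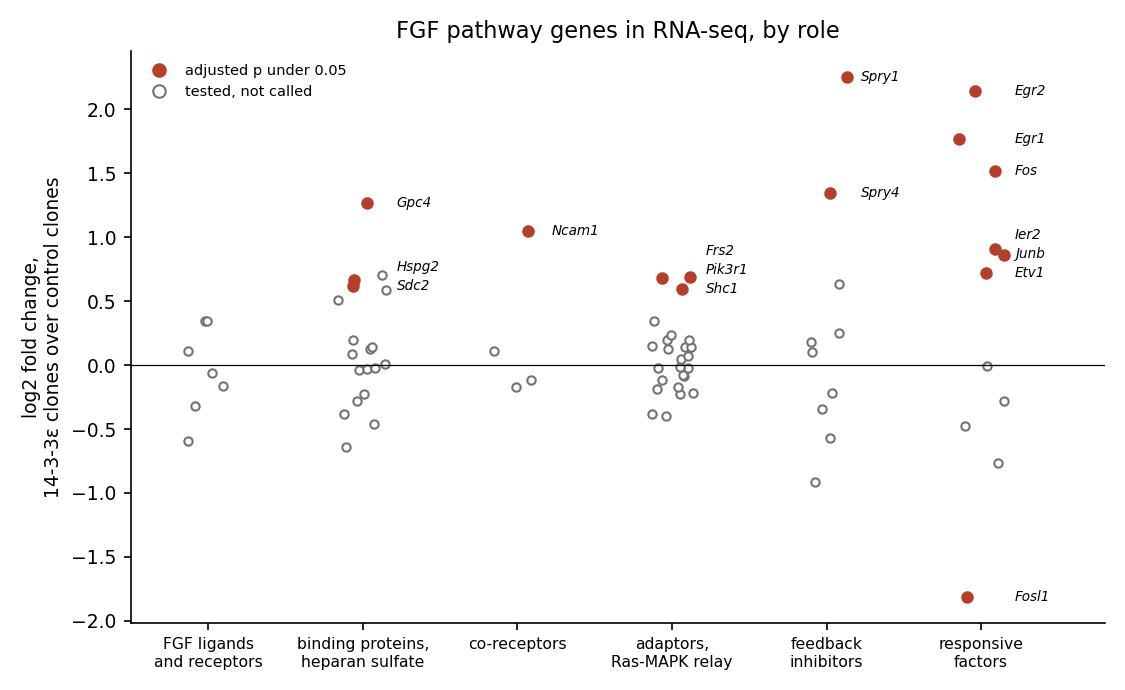
Log2 fold change (y axis, 14-3-3ε over control clones, authors' deposited values) of each tested gene, grouped by role, without Fgf11 and Fgf17. Filled red points are genes with an adjusted p under 0.05, with their names. No FGF ligand or receptor is among them, and 6 of the 11 responsive factors rose while Fosl1 fell.

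Methylation was read at the same loci, each gene's annotated span with 5 kb on each side in build mm10. The annotation is RefSeq GRCm38.p6, the assembly of that build, and it gives neither exons nor introns here. In these regions 1584 cytosines were listed and 59 had q under 0.05, which is 3.72%, beside 4.74% of all 2361680 cytosines. Of the 59, 29 were higher and 30 lower. Over all cytosines 112032 were called, 45255 of them higher (1.92% of all cytosines) and 66777 lower (2.83%). The mean difference was -0.402 percentage points, against -0.491 over all cytosines, and the mean size regardless of sign was 3.98 points, against 4.96, averaged from the authors' deposited table. Coverage is not in the table, so the reads behind each value are unknown, and the spread between clones of 1 group cannot be read from it. The sources used here do not say whether the q-values allow for that spread, so a small q need not mean that both clones of a group were alike.

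**Figure D4:**
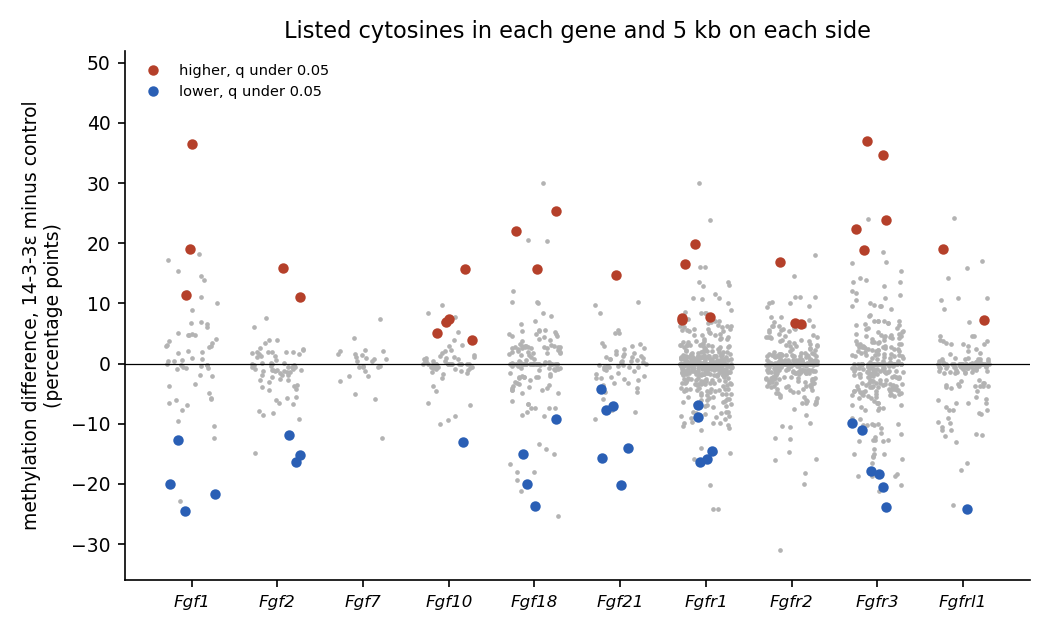
Methylation difference (y axis, 14-3-3ε minus control, percentage points) of every listed cytosine in each FGF gene and 5 kb on each side; points are spread sideways at random for visibility. Red points are higher and blue points lower at q under 0.05, and grey points were not called. Fgf7 has no called cytosine among 26.

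The called share, over each gene's span with 5 kb on each side, differed among the genes. It was 10.9% for Fgf1 (7 of 64 cytosines), 10.4% for Fgf21 (7 of 67), 8.70% for Fgf10 (6 of 69) and 6.94% for Fgf2 (5 of 72). It was 4.61% for Fgf18 (7 of 152), 3.85% for Fgfr3 (11 of 286), 2.35% for Fgfr1 (10 of 426), 2.13% for Fgfrl1 (3 of 141) and 1.07% for Fgfr2 (3 of 281). Fgf7 had 0 of 26. Within the gene span alone, Fgf21 had 0 of 12 called, Fgf18 1 of 87 and Fgf10 3 of 32. The 7 calls of Fgf21 were thus all in its flanks, while all calls of Fgf1, Fgf2, Fgfr2 and Fgfr3 lay within the gene. The 4 ligand genes with the highest shares had few listed cytosines, and neighbouring cytosines share fragments, so these shares were not tested against each other.

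Most called cytosines in these regions were not called on the other strand. How often this holds over all called cytosines was not computed. Of the 59, 58 had the other strand of the same CpG listed; the sign agreed there in 44, and 16 of the 58, in 8 CpGs, were called with the same sign on both strands. Only 4 called cytosines differed by at least 25 points, which is 0.253% of the 1584 listed, beside 1.34% of all cytosines at q under 0.05. All 4 were higher, but the split by direction over all cytosines was not computed at this minimum. In Fgfr3 (chr5:33721724-33737068), both strands of a CpG at 33723617 were higher, by 37.0 points (q = 0.0129) and 34.7 points (q = 0.0263) in the authors' deposited table. In Fgf1 a cytosine in the gene was higher by 36.6 points (q = 5.35e-06) in the authors' deposited table, while the other strand of its CpG had -0.275. Upstream of Fgf18 (chr11:33116970-33147400), -885 bp from the start, one strand of a CpG was higher by 25.4 points (q = 0.0479) and the other had -25.3 in the authors' deposited table. Of these, the CpG in Fgfr3 is the one with the same sign on both strands. Among the other receptors, the called cytosine furthest from 0 had 19.9 points (q = 0.00907) before Fgfr1, 16.8 points (q = 0.0363) within Fgfr2 and -24.1 points (q = 0.0136) within Fgfrl1 in the authors' deposited table, and none of these was called on the other strand. All 3 called cytosines of Fgfr2 were higher, the other 2 by 6.79 and 6.63 points in the authors' deposited table. They are 1.07% of its 281 listed cytosines, while 1.92% of all cytosines were called higher, and the mean over the 281 was -0.148 points. The CpG of the 16.8-point call had -12.5 points on its other strand. Among ligands, the called cytosine furthest from 0 had -16.3 points (q = 0.00920) within Fgf2, 15.7 points (q = 0.0158) within Fgf10 and -20.1 points (q = 0.000276) before Fgf21 in the authors' deposited table.

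Runs of at least 3 called cytosines of 1 sign within 300 bp were found in 3 genes. How often such runs occur over all genes was not computed, so the runs are a description only. In Fgf1, on chromosome 18, 4 cytosines over 46 bp were lower, with differences of -12.7 to -24.6 points in the authors' deposited table, and the 8 cytosines listed between the outer ones averaged -12.3. Of the 4, 2 are the strands of 1 CpG. They lie 495 to 540 bp inside the end of the gene that has more listed cytosines, in a stretch also annotated to Arhgap26 and Gm5820, and the next called cytosine was higher by 19.1 points in the authors' deposited table. Near Fgf21 (chr7:45613890-45615490), 3 of 4 listed cytosines over 7 bp were lower, with differences of -7.64 to -20.1 points in the authors' deposited table. They lie about 2 kb before the start of Fgf21 and closer to Fut1, a fucosyltransferase gene whose span begins at 45617606. Of the 3, 2 are the strands of 1 CpG, and the next called cytosine, at 45617532, was higher by 14.8 points (q = 0.0362) in the authors' deposited table. Fgf10 had the third run, described below.

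Called cytosines near gene starts went both ways. Within 1000 bp of a start, 3.47% of all listed cytosines were called and their mean size of difference was 3.42 points. Fgf10 (chr13:118714699-118792573) had all 69 of its listed cytosines there, of which 5 were higher and 1 lower, with a mean of 0.511 points, averaged from the authors' deposited table. Its run of 3 higher cytosines, 223 to 293 bp before the start, had differences of 3.90 to 6.93 points in the authors' deposited table, and the 18 cytosines listed across the run averaged 1.24. Fgf2 (chr3:37348477-37410106) had 4 of 28 cytosines called within 1000 bp, 2 higher and 2 lower, all downstream of the start. Fgfrl1 (chr5:108694229-108706950) had 2 of 115 called and a mean of -1.60 points, and Fgf18 had 1 of 76. For Fgfr2 (chr7:130162451-130266808), the gene nearest to a call in RNA, 0 of 69 were called and the mean was 0.111 points, averaged from the authors' deposited table; 43.5% of these differences were exactly 0, and all 69 lay downstream of the start, as the plot around gene starts shows. Fgfr3 has a pair of annotated starts, with 3 of 77 and 5 of 112 cytosines called around them, and Fgf21 had 0 of 12. Fgfr1 (chr8:25518759-25575718) had 3 of 173 called at the gene end with more listed cytosines, which was used because no start was given for Fgf1 and Fgfr1 in the promoter table. By the same rule Fgf1 had 5 of 14 called, 1 higher and 4 lower, the lower ones being the run described above.

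**Figure D5:**
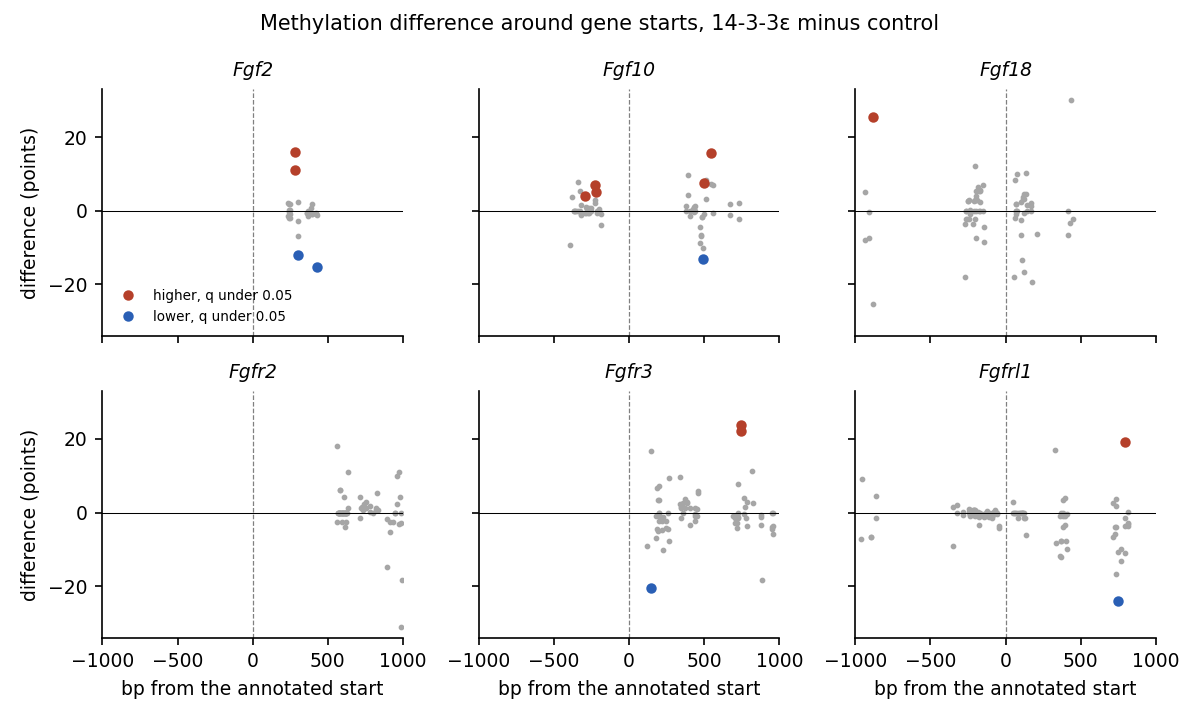
Methylation difference (y axis, 14-3-3ε minus control, percentage points) of listed cytosines within 1000 bp of the annotated start (x axis, bp, negative is upstream) of 6 FGF genes. Red points are higher and blue points lower at q under 0.05. No cytosine is called around Fgfr2, and the 3 called before Fgf10 differ by less than 7 points.

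What RRBS could read at these promoters differs, as the 250 bases before each start show (RefSeq, GRCm38.p6, 5′ to 3′ on the gene's strand). Capitals mark CpGs with at least 1 listed cytosine. Fgf10 is shown for its called CpG, Fgfrl1 and Fgf18 as promoters read densely with no call, and Fgf7 as one with no listed cytosine. The windows are chr13:118714449-118714698 on the plus strand for Fgf10, chr5:108693979-108694228 on the plus strand for Fgfrl1, chr11:33147401-33147650 on the minus strand for Fgf18 and chr2:126034408-126034657 on the plus strand for Fgf7.
Fgf10: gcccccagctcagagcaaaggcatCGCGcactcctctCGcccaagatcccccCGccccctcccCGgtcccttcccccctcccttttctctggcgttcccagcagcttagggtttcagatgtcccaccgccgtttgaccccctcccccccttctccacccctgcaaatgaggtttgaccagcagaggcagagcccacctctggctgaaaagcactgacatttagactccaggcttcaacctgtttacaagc
Fgfrl1: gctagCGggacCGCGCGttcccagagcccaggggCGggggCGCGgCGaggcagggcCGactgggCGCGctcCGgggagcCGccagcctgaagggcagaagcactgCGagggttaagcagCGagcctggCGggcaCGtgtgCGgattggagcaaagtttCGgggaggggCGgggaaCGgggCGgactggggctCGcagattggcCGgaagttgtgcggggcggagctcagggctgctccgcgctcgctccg
Fgf18: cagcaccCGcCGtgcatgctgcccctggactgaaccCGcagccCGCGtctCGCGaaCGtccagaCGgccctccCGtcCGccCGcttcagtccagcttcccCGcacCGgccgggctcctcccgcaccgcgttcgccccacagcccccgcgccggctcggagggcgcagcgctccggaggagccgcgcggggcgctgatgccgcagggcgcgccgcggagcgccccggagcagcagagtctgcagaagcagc
Fgf7: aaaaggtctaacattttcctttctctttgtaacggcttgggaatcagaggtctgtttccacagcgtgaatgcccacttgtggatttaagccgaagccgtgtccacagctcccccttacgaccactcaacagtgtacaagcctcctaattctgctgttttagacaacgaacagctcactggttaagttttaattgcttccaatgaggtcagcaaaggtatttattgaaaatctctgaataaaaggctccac
The Fgf10 window holds 8 CpGs, 5 of them listed. Both strands of the second CpG of the adjacent pair in capitals, at 118714475, were higher, by 6.93 (q = 0.00111) and 5.11 points (q = 0.0270) in the authors' deposited table. In the Fgfrl1 window 24 of 30 CpGs were listed, with 48 cytosines between -4.06 and 0.917 points and none called in the authors' deposited table. In the Fgf18 window 14 of 37 CpGs were listed, with 28 cytosines between -8.49 and 12.1 points and none called in the authors' deposited table. The Fgf7 window (gene at chr2:126034658-126091185) has 6 CpGs, equal to the median over 32851 such windows, and no CCGG, and no cytosine was listed within 1000 bp of its start. CCGG, the MspI site, which reads the same on both strands, was in 47.1% of all windows. The windows of Fgfr2, Fgf2, Fgf21 and the first start of Fgfr3, with 2, 20, 9 and 19 CpGs, also had no listed cytosine, although Fgfr2 has 1 CCGG and Fgf2 and Fgfr3 have 2 each. The window before the second start of Fgfr3 had 22 listed cytosines in 11 of 24 CpGs, none called.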

How the data were processed

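The FGF genes and all gene lists were chosen with earlier results of these data known. Tools named without version, role or setting in the submitters' processing notes are Trim Galore, Bismark, Bowtie2, methylKit, TopHat2, HTSeq and DESeq2, with build mm10. In the RNA-seq table the authors deposited a mean level per gene (a signal, read as size-factor-scaled counts averaged over libraries), a fold change and standard error on the log2 scale, a test score, and p-values with adjusted p-values, per the file headers; these are called moderated because folds of weakly counted genes stay small. In the RRBS table the authors deposited p-values, q-values and a difference in percent methylation per cytosine, per the file headers. RRBS began with 1 μg of DNA and fragments of 150 to 400 bp; RNA inserts averaged 200 bp, per the labels' protocols. The RNA kit was directional; the sources used here do not say whether counting used strand.

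Calls used the authors' adjusted p under 0.05 for genes and cytosines at q under 0.05, over the whole tables. Intervals are the log2 fold change ± 1.96 standard errors. Exactly duplicated RRBS lines (253) were removed. Of 14471 listed cytosines in 2000 promoter windows drawn at random, 14471 sat on a C of their strand in the GRCm38.p6 sequence. The tables do not show depth per library, and counting intervals are therefore not given. The planned fits from counts were not run, since no table holds counts. Named genes are the 10 FGF genes, every called gene of the other lists and up to 3 uncalled genes per list with the largest mean levels; Dusp5, Etv4, Klb, Fgfr4, the FGF genes at 0, Ywhae, the neighbouring or overlapping genes (Nudt6, Fgf2os, Fut1, Arhgap26 and Gm5820) and the marker genes fall outside this rule and were named after their values were seen; 1 uncalled relay gene that the rule names is not reported here. Fgf1 and Fgfr1 had no promoter entry. Scripts ran in Python 3.11.15 with pandas 2.3.3. The adjustment of p-values was tested on simulated statistics, and region counts and strand averaging on a small made-up example. The other steps had no such test.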

Additional observations from a re-analysis of the deposited data

How the results depend on the processing

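With adjusted p under 0.1 in place of 0.05, 1 FGF gene (Fgfr2) was called in place of 0, and 21 pathway genes in place of 16: 17 rose in place of 15, and 4 fell in place of 1, Dusp4, Dusp5 and Myc being added. At 0.01, 10 pathway genes were called, 9 of them higher. With a log2 fold change of at least 1 required as well, 8 were called, 7 of them higher. Adjustment over every gene with a p-value, with no filter on low levels, called 15 pathway genes, losing Shc1 (adjusted p = 0.0580), and gave Fgfr2 0.0783 and Fgf1, Fgf18 and Fgfr3 0.877 each. For methylation, q under 0.01 left 27 called cytosines (10 higher and 17 lower), a minimum of 25 points left 4 (4 higher and 0 lower), and the gene spans alone held 38 (19 higher and 19 lower); with 10 kb on each side the count was 59. Mean differences per gene kept their sign under all 30 recalculations. These draw on overlapping sets of cytosines, and in some the set was unchanged, as for Fgf1 with the gene span alone, so a kept sign says little. Fgfr2 came closest to 0, at -0.0183 points with 10 kb on each side. At gene starts 6 of 17 changed sign, in Fgf1, Fgf10, Fgf18, Fgfr2 and Fgfr3, with Fgf1 at 8.51 points within 500 bp against -1.58 within 1000 bp; within 500 bp no cytosine was listed for Fgfr2. Fgf7 had none within 500 or 1000 bp, and within 2000 bp it had 10, none called, with a mean of 0.395 points. No paired analysis was possible because the tables hold no value per clone, and leaving out a clone was not possible for the same reason. Without values per library, neither depth nor the spread between clones could be weighed.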
